A study of Mus musculus with 8 samples.

Results

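The random contigs of the mouse genome build mm9 are stretches of sequence that the assembly could not put at a place on a chromosome. DNA methylation on them was read out with reduced representation bisulfite sequencing (RRBS). MspI cuts the DNA at CCGG sites, short fragments are kept, and bisulfite turns unmethylated cytosines into bases read as thymine. Members were all CpG positions of the deposited tables whose sequence name holds the word random, with at least 10 reads in each of the 8 libraries, and the level of a position is its methylated reads as a percentage of its reads. These were 1454 of 978402 positions, on 8 of the 11 random contigs that any library covered. They were set beside 959366 positions on placed autosomes.

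The DNA came from cortex and outer medulla of kidneys of wild-type male C57BL/6J mice, whose age the labels do not give. Kidney fibrosis was modelled by unilateral ureteral obstruction (UUO) for 7 days, with 2 libraries from mice that also received 5AZA by intraperitoneal injection in saline at 1 mg/kg/day, 2 libraries from obstructed mice without 5AZA and 1 library from a sham operation. In the ischemia series both kidneys were clamped for 25 minutes, with 1 library after 1 week of reperfusion, 1 after 1 month and 1 from a sham operation of that series. Whether the libraries within a group are from different mice is not in the labels, so SDs and p-values measure only the spread between libraries, which may be technical. The labelled tissue was not checked against marker genes, since no annotation of mm9 was used.

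A random contig named for a chromosome is assigned to it without a position, and chrUn_random holds sequence assigned to none. Such sequence is often repetitive, and the mouse Y chromosome in particular carries long arrays of near-identical amplified copies. In somatic tissue repeats are mostly methylated, while CpG islands, the CpG-dense stretches at many gene starts, mostly are not. 5AZA is the usual short name of azacytidine, a cytosine analogue. Drugs of this kind trap DNA methyltransferases and lower methylation in dividing cells.

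The Y chromosome's contig gave the most positions. chrY_random held 501 of the 1454 positions, chrUn_random 336, chr9_random 221, chr1_random 198, chr4_random 148, chr8_random 21, chrX_random 18 and chr13_random 11. The read minimum did not bear on them equally. It kept 13.8% of the 3630 chrY_random positions that any library covered, 54.4% of the 406 on chr9_random and 50.7% of the 292 on chr4_random, against 38.2% on placed autosomes. At the border of the minimum, 39 random positions had 10 reads in their shallowest library and stayed in, and 72 had 9 and were left out. Libraries held 57853745 to 86411736 reads over CpG positions, of which 0.145% to 0.158% lay on random contigs.

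The contigs fell into a highly methylated set and a set of mixed methylation. Averaged over libraries, chr13_random was at 95.1%, chr8_random at 90.1%, chrY_random at 89.5% and chrX_random at 81.1%. The rest lay lower, with chr1_random at 54.7%, chrUn_random at 51.6%, chr4_random at 45.1% and chr9_random at 33.8%, around the placed autosomes at 44.7%. No library moved a contig of the higher set into the range of the lower one. In the higher set chr8_random, chrY_random and chr13_random overlapped over libraries, while no contigs of the lower set overlapped.

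**Figure D1:**
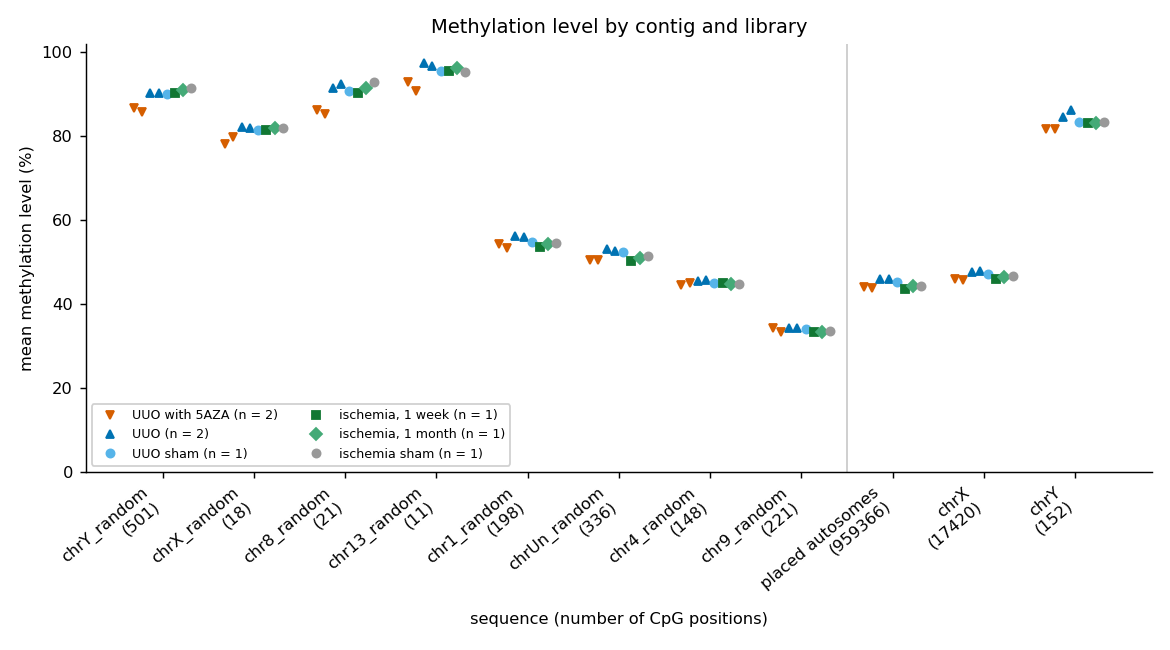
Mean methylation level in percent (vertical axis) of each random contig, the placed autosomes, chrX and chrY, with the number of CpG positions in brackets and 1 point per library, coloured by group. chrY_random, chr8_random, chr13_random and chrX_random lie at 78.2% or more in every library, and the other contigs at 56.2% or less.

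chrY_random stood at 86.8% and 85.9% in the UUO libraries with 5AZA and at 90.3% and 90.3% in the UUO libraries without it, with 90.1% in the UUO sham. It stood at 90.4% after ischemia at 1 week, 91.0% at 1 month and 91.4% in the ischemia sham. Both 5AZA libraries were below all other libraries. The placed autosomes gave another order, at 44.2% and 43.8% with 5AZA, 46.1% and 46.1% in UUO, 45.2% in the UUO sham, 43.7% and 44.3% after ischemia at 1 week and 1 month and 44.3% in the ischemia sham. There the 3 ischemia-series libraries lay with the 5AZA libraries, whereas on chrY_random they were the highest of all 8.

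On chr8_random both 5AZA libraries were again the lowest, at 86.2% and 85.4% with 5AZA and 91.5% and 92.4% in UUO, with 90.7% in the UUO sham. It was at 90.4% after ischemia at 1 week, 91.6% at 1 month and 92.9% in the ischemia sham. Only 21 positions stand behind these values. The 11 positions of chr13_random were at 92.9% and 90.8% with 5AZA, below the other 6 libraries at 95.3% to 97.5%.

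chr9_random, the least methylated contig, differed little between libraries. It was at 34.3% and 33.4% with 5AZA, 34.3% and 34.4% in UUO and 34.1% in the UUO sham, and at 33.3% after ischemia at 1 week, 33.4% at 1 month and 33.5% in the ischemia sham. Both 5AZA libraries were below both UUO libraries there too, but the nearer at 34.25% against 34.29%, and they overlapped with the shams. chr4_random spanned only 44.6% to 45.7% over all 8 libraries.

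chrUn_random was at 50.5% and 50.6% with 5AZA, 53.3% and 52.7% in UUO and 52.5% in the UUO sham. After ischemia it was at 50.4% at 1 week and 51.1% at 1 month, with 51.5% in the ischemia sham. Its 5AZA libraries lay below both UUO libraries and the UUO sham but not below the library of ischemia at 1 week. chr1_random was at 54.3% and 53.4% with 5AZA and 56.2% and 56.01% in UUO, with 54.7% in the UUO sham, and at 53.6% to 54.6% in the ischemia series.

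Each contig of at least 20 positions was compared with the placed autosomes inside each library, by a two-sided exact permutation test over the 8 libraries with Benjamini-Hochberg adjustment over the 27 sequences tested. The mean level differed for chrY_random by 44.8 percentage points (SD 1.91, higher in 8 of 8 libraries, exact permutation adjusted p = 0.00811). It differed by 45.4 points for chr8_random, 9.95 for chr1_random, 6.86 for chrUn_random and -10.9 for chr9_random, each in the same direction in all 8 libraries and with the same adjusted p, the smallest reached. chr4_random was 0.363 points above the autosomes, higher in 5 of 8 libraries (exact permutation adjusted p = 0.148). This test passed for 96.3% of the 27 sequences, including 19 of 19 autosomes, so passing it is no mark of a random contig. The differences of single autosomes ran from -3.42 points on chr19 to 1.54 points on chr10. chr4_random lay inside this range, and the other contigs tested lay outside it. These contigs held 21 to 501 positions and single autosomes 28223 to 76564. The part of these numbers in the size of the differences was not tested.

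What separated the contigs was the mixture of positions. Below 10% lay 61.5% of chr9_random positions, 50.7% on chr4_random, 38.1% on chrUn_random and 37.4% on chr1_random, beside 44.9% on placed autosomes. None of the 501 chrY_random positions was below 10%, and 64.3% were at 90% or more, against 23.6% of autosomal positions. The placed Y chromosome, with 152 positions, had 7.89% below 10% and 68.4% at 90% or more. On chrX_random 11.1% of the 18 positions were below 10% and 61.1% at 90% or more, beside 44.1% and 27.3% on the placed X chromosome.

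**Figure D2:**
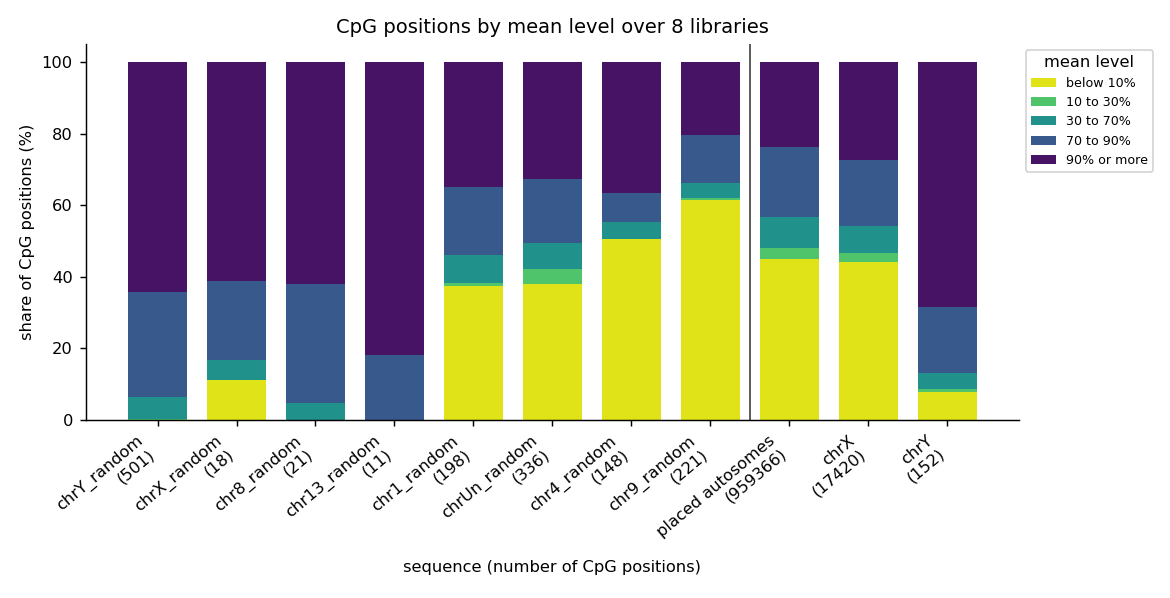
Share of CpG positions in percent (vertical axis) by mean level over 8 libraries, for each random contig, the placed autosomes, chrX and chrY; colours mark the classes cut at 10, 30, 70 and 90%. chr9_random has the largest share below 10% (61.5%), and chrY_random, chr8_random and chr13_random have no position there.

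Windows of low methylation on the contigs mostly held many kept CpG positions. In 1000-bp windows counted from the start of each contig, 18 of the 149 random windows with at least 3 kept positions had a mean level below 30%. They lay on 4 contigs, chr1_random, chr4_random, chr9_random and chrUn_random, and held 469 of the kept positions, a median of 26.5 per window. The 118 windows at 70% or more had a median of 4. Not all low windows were dense, since that on chrUn_random from 3760001 to 3761000 held 7. Kept positions also depend on MspI sites and on the read minimum. Dense clusters of this kind have the CpG density and low methylation by which CpG islands are known. The genes or repeats they belong to were not analysed here.

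The window with the most positions on chr9_random, from base 55001 to 56000, held 64 positions within 942 bp. Of these, 56 were below 10%, none above 4.44%, and the other 8 were between 69.1% and 81.9%. Averaged over reads the window stood at 12.3% and 12.9% with 5AZA, 12.1% and 12.4% in UUO, 12.7% in the UUO sham, 11.5% after ischemia at 1 week, 10.9% at 1 month and 11.2% in the ischemia sham. The groups differed by less than 1 point in each comparison. Each library had 4811 to 7899 reads there, summed over positions.

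All 8 highly methylated positions of that window were at the edge of a fragment, as were 25 of the 56 below 10%. An edge position is one whose read depth differed by more than 10% from that of a neighbouring CpG on either side, or that lacked a neighbour within 250 bp on one side. The same held in the densest windows of the other 3 contigs with such clusters. On chr4_random from 110001 to 111000, 68 of 80 positions were below 10% and the 12 at 60% or more were all edges, as were 28 of the 68. On chrUn_random from 3233001 to 3234000 there were 42 of 51 below 10%, 20 of them edges, and 8 at 60% or more, all edges. On chr1_random from 342001 to 343000 there were 26 of 33 below 10%, 9 of them edges, and 7 at 60% or more, all edges.

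**Figure D3:**
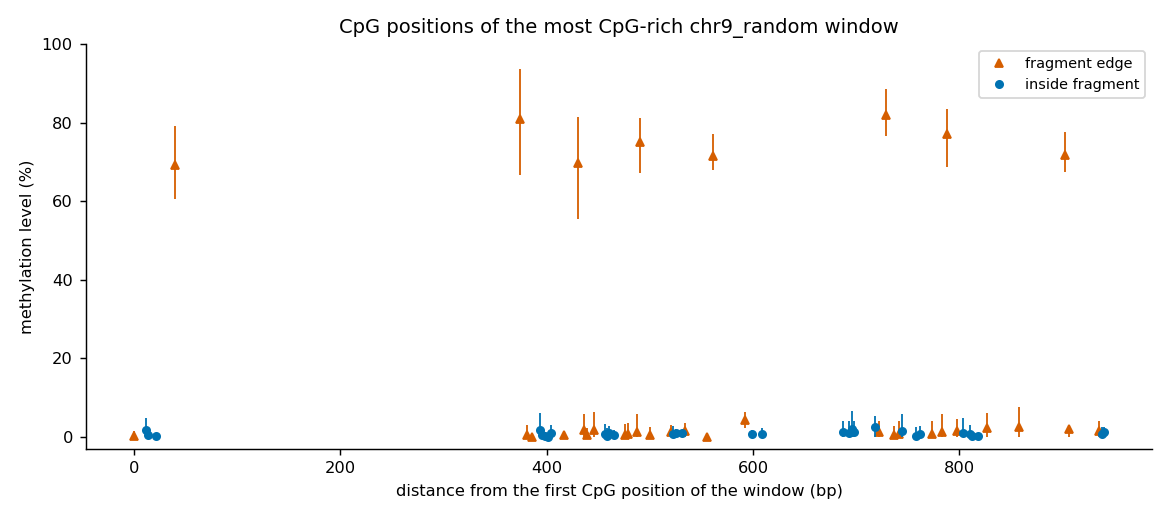
Mean methylation level over 8 libraries in percent (vertical axis) of the 64 CpG positions in the densest chr9_random window, by distance in bp from its first position; bars span the lowest and the highest library, triangles are fragment edges and circles lie inside fragments. The 8 positions at 69.1% or more are all fragment edges, and the other 56 are at 4.44% or less.

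Fragment edges made up 66.5% of random positions and 58.1% of autosomal ones, and levels differed greatly between both kinds. Inside fragments chr9_random averaged 8.44% and at edges 51.3%, while chrY_random averaged 85.7% inside and 90.5% at edges. Over all random contigs it was 40.6% inside and 74.2% at edges, and over autosomes 21.4% inside and 61.5% at edges. Per the labels' protocol, fragment ends were filled in with a mix that held methylated dCTP. By the definition used, a position inside a fragment also has a covered CpG within 250 bp on both sides, so both kinds differ in CpG spacing too. The parts of the fill-in and of CpG spacing in the edge levels were not tested. Inside fragments chr4_random stood at 36.1%, well above the autosomes, whereas over all positions it was level with them.

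chrY_random was shallower than the autosomes, as were the placed sex chromosomes. The median depth of chrY_random was 30 to 43 reads per position over libraries, against 47 to 71 on placed autosomes. As a ratio to the autosomal median it was 0.625 and 0.723 with 5AZA, 0.554 and 0.611 in UUO, 0.604 in the UUO sham, 0.652 after ischemia at 1 week, 0.592 at 1 month and 0.625 in the ischemia sham. The placed Y chromosome averaged 0.485 of the autosomal median and the placed X chromosome 0.558, in male mice with a single copy of each.

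The other contigs spread around the autosomes. chr9_random was deeper, at 1.27 times the autosomal median on average (1.13 to 1.39 over libraries), and chrUn_random shallower, at 0.898 (0.83 to 0.979). chr1_random averaged 1.04 and chr4_random 1.05, both above the autosomes in 5 libraries. chrX_random varied most, with 0.667 and 0.638 in the 5AZA libraries, 0.485 and 0.593 in UUO, 0.623 in the UUO sham, 0.758 after ischemia at 1 week, 0.993 at 1 month and 1.12 in the ischemia sham. On its 18 positions the ischemia series was deeper than the UUO series. Inside the ischemia series both libraries after ischemia were shallower than the sham on it, and likewise on chr8_random, at 0.591 at 1 week and 0.648 at 1 month against 0.958 in the sham.

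In the same exact permutation test, depth passed at an adjusted p of 0.0352 for chrY_random (log2 ratio -0.69, SD 0.112, lower in 8 of 8 libraries), chrUn_random (-0.16, lower in 8 of 8) and chr9_random (0.35, higher in 8 of 8). chr8_random passed at an exact permutation adjusted p of 0.0469 (log2 ratio -0.31, lower in 7 of 8). The value of chrUn_random moved to -0.0487 (exact permutation p = 0.25) at positions with a dot in the strand column of every table, a set chosen after seeing the data. chr1_random (exact permutation adjusted p = 0.248) and chr4_random (0.237) did not pass. All contigs together had a log2 ratio of -0.24, which turned to 0.0383 without chrY_random and chrX_random. The test passed for 33.3% of the 27 sequences, among them 3 of 19 autosomes. The read minimum removes the shallow positions of a sequence. In all positions that every library covered, a set chosen after seeing the data, chrY_random lay at 0.417, the placed Y chromosome at 0.381 and the placed X chromosome at 0.473 of the autosomal median.

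**Figure D4:**
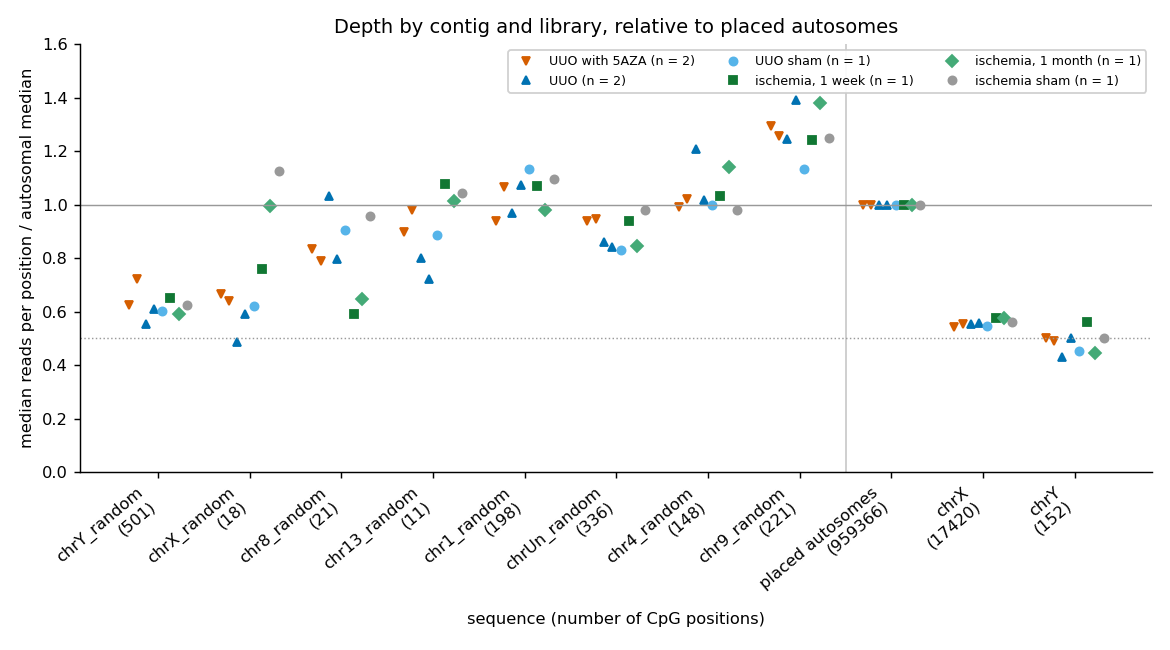
Median reads per CpG position divided by the median on placed autosomes of the same library (vertical axis), for each random contig, chrX and chrY, with 1 point per library coloured by group; the solid line marks a ratio of 1 and the dotted line 0.5. chrY_random lies at 0.554 to 0.723 and chr9_random at 1.13 to 1.39, with no overlap with the autosomes at 1.

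The deepest of the 1454 random positions held 364 reads in a library, while the deepest of the 959366 autosomal positions held 500121. These maxima come from sets of unlike size. Of the random positions, 32 averaged more than 152.75 reads over libraries, the 99th percentile of autosomal positions. The 3 windows with the most reads per position were all on chrUn_random. The window from 3760001 to 3761000 averaged 264 reads per position and a level of 22.1%, a mixture of 5 positions at 2.57% or less and 2 edge positions at 73.3% and 74.5%. The windows from 3732001 to 3733000 (167 reads per position, level 50.2%) and from 3390001 to 3391000 (162 reads, 79.9%) followed. None of the 3 passed the test in a comparison of groups. How reads that align equally well to several copies were treated is not given in the sources used here, so depth cannot tell copies that were merged from copies that were discarded.

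The next question was whether 5AZA in obstructed kidneys lowered methylation on the contigs more or less than at placed positions of like level. For this, autosomal positions were sorted into 10 classes of 10 points by their level in a sham library outside the comparison, and their means were weighted by the classes of each contig's positions. All contigs together averaged 61.4% ± 0.366 with 5AZA and 63.9% ± 0.0866 in UUO (SD, n = 2 each), a difference of -2.56 points. Autosomal positions of like level differed by -2.41 points. With reads pooled over positions, in place of equal weight for each position, these differences were smaller, at -0.508 and -0.279 points. With positions weighted equally, the contigs thus lay 0.159 points further down, with replicate libraries differing in this quantity by an SD of 0.104. The two-sided exact permutation test of 2 libraries against 2 gave p = 0.333, the smallest this design allows. The direction was not kept, since the contigs lay 0.264 points above positions of like level with fragment edges left out and 0.145 points above them without chrY_random and chrX_random.

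Single contigs shared the direction against UUO but not its size. All 8 contigs were lower with 5AZA than in UUO, 6 of them by more than autosomal positions of like level and 2 by less. chrY_random averaged 86.3% ± 0.621 with 5AZA and 90.3% ± 0.0324 in UUO (SD, n = 2 each), a difference of -3.96 points. Positions of like level differed by -3.24 points on the autosomes together, by -3.35 to -3.11 points on single autosomes and by -3.26 points on the placed X chromosome. chrY_random lay below each of the 19 autosomes in this respect, with an exact permutation p of 0.333, again the smallest possible. chr8_random and chrUn_random also lay below all 19, chr1_random below 18, and chr4_random and chr9_random above all 19. Single autosomes held 28223 to 76564 positions and chrY_random 501. The part of these numbers in such differences was not tested.

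By means over positions, the difference of chrY_random was larger than that of the autosomes in each level class that held at least 20 of its positions. By windows it was close to that of all windows. In its 356 positions at 90% or more, levels were 91.6% and 91.1% with 5AZA and 94.99% and 94.7% in UUO, a difference of -3.48 points beside -2.92 at autosomal positions of that class. In its 118 positions at 70 to 90%, they were 79.5% and 78.1% with 5AZA and 83.9% and 84.4% in UUO, a difference of -5.37 points. Autosomal positions of that class differed by -3.63 points. Its 25 positions at 30 to 70% averaged 55.3% ± 2.53 with 5AZA and 59.8% ± 1.17 in UUO (SD, n = 2 each). They differed by -4.56 points, beside -4.35 on the autosomes, a gap smaller than these SDs. In windows of 1000 bp, chrY_random had a median difference of -3.82 points, with 64 of its 65 windows at 70% or more. The median over all windows at 70% or more was -3.79 points. On the placed Y chromosome, 97 positions at 90% or more differed by -3.17 points and 31 positions at 70 to 90% by -3.19 points. Over all 152 positions the placed Y chromosome averaged 81.8% ± 0.0801 with 5AZA and 85.5% ± 1.19 in UUO (SD, n = 2 each). The depth of chrY_random relative to the autosomes was also higher in both 5AZA libraries than in both UUO libraries. Its part in the level difference was not tested. With classes by level and depth in the sham library together, added after seeing the data, chrY_random differed by 0.609 points more than autosomal positions of like level and depth.

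chr8_random differed most, at 85.8% ± 0.566 with 5AZA and 92.0% ± 0.642 in UUO (SD, n = 2 each), a difference of -6.23 points beside -3.11 at like level. chr13_random differed by -5.22 points beside -3.03, over 11 positions. chr9_random and chr4_random stood at the other end, with -0.487 points beside -1.40 and -0.872 beside -1.69. On both, the positions below 10% differed little, at 2.08% with 5AZA and 1.84% in UUO on chr9_random, and at 1.79% with 5AZA and 1.84% in UUO on chr4_random. In the class of 70 to 90%, the 24 positions of chr9_random averaged 80.1% with 5AZA and 79.9% in UUO, while its 47 positions at 90% or more differed by -3.62 points.

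**Figure D5:**
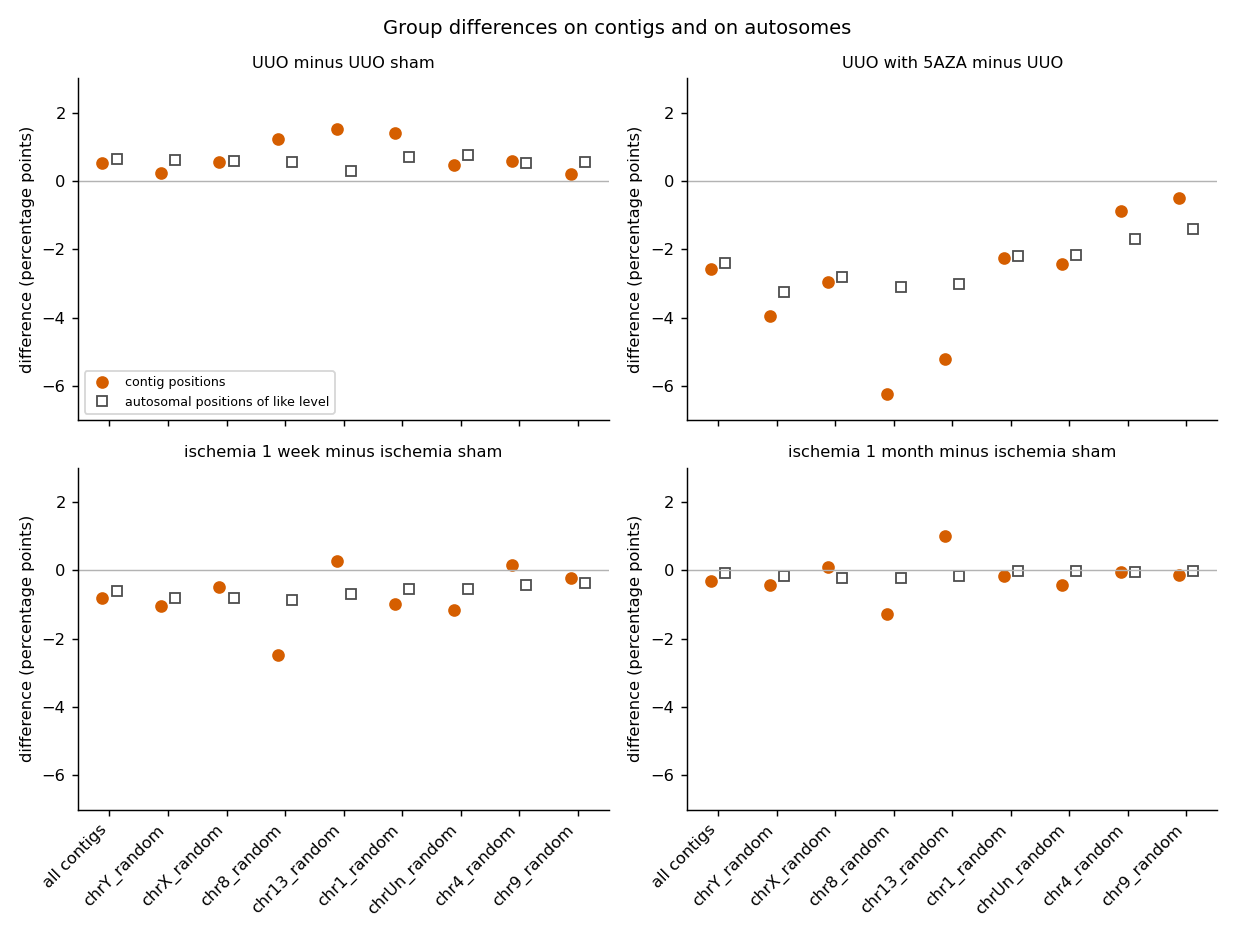
Difference of mean methylation level in percentage points (vertical axis) for each random contig (filled circles) and for autosomal positions of like level (open squares), in 4 comparisons, each titled as group minus its comparator; points are differences of group means with no error bar, since groups had 1 or 2 libraries. With 5AZA every contig lies below 0, from -6.23 on chr8_random to -0.487 on chr9_random, whereas the UUO contrast stays within 1.53 points.

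In windows, 149 random windows were tested together with all placed windows, 93879 in all, by a quasi-binomial model with Benjamini-Hochberg adjustment over all of them. Calls needed an adjusted p under 0.05 together with 10 points or more between group means. With 5AZA against UUO, 1 of 149 random windows was called, beside 0.385% of all windows. At an unadjusted p below 0.05 there were 35 of 149 random windows (23.5%), beside 24.3% of all windows. All 35 were lower with 5AZA, as were 21928 of the 22775 windows that passed among all windows. Windows that passed and were lower thus made up 23.5% of random windows and 23.4% of all windows. Both 5AZA libraries were below both UUO libraries in 74 random windows (49.7%), beside 49.2% of all windows, and above both in 3 (2.01%), beside 5.61%. Differences of any size were lower in 122 random windows (81.9%), beside 79.3% of all windows. Apart from the few windows above both, these shares were close to the background. The median difference was -3.10 points over random windows and -2.74 over all windows, and in windows at 70% or more it was -3.73 over random windows and -3.79 over all windows.

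The called window lay on chrY_random from base 38558001 to 38559000 and held 5 CpG positions within 124 bp. Its level was 84.0% and 78.2% with 5AZA, 96.0% and 95.9% in UUO and 95.3% in the UUO sham, and it was 95.2% after ischemia at 1 week, 96.8% at 1 month and 94.6% in the ischemia sham. The 2 libraries with 5AZA were below all 6 without it. The difference was -14.9 points (SE 2.53, adjusted p = 0.0389 by the quasi-binomial model, 2 of 2 5AZA libraries lower). The exact binomial 95% intervals were 78.4% to 88.7% and 70.2% to 84.9% in the 5AZA libraries, and 93.3% to 97.9% and 92.4% to 98.1% in the UUO libraries, for counting error alone, from 133 to 329 reads.

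The positions of that window did not move alike. The first was at 83.8% and 85.7% with 5AZA and 96.7% and 95.7% in UUO. The largest gap was 116 bp after its first position, with 77.3% and 64.3% with 5AZA and 89.6% and 95.5% in UUO. The positions at 91 and 98 bp were at 81.8% in one 5AZA library, at 75% and 71.4% in the other, and at 93.2% or more in UUO. The last, at 122 bp, was at 95.5% and 96.4% with 5AZA and 100% and 97.7% in UUO. Fragment edges were the first position and those at 91 and 122 bp. The positions at 91, 98 and 116 bp had equal depth, 395 reads each over all libraries, as positions covered by the same reads have, so they are not independent. The call was not made by limma on log2 ratios (adjusted p = 0.151), which called no window at all, windows of 300 bp gave no call on random contigs, beside 0.0102% of all windows, and the window could not be tested with fragment edges left out, since fewer than 3 positions remained.

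For obstruction alone, contigs differed little. All contigs together averaged 63.9% ± 0.0866 in UUO (SD, n = 2) and 63.4% in the UUO sham, differing by 0.511 points beside 0.645 at autosomal positions of like level. With positions weighted equally, all 8 contigs were higher in UUO, 4 by more than like autosomal positions and 4 by less. The direction depended on this weighting. With reads pooled over positions, the contigs together differed by -1.415 points and like autosomal positions by -1.372. The median difference was 0.13 points over random windows, beside 0.466 over all windows. chr1_random averaged 56.1% ± 0.144 in UUO (SD, n = 2) and 54.7% in the UUO sham, differing by 1.41 points, above the 0.62 to 0.845 of like positions on the 19 autosomes. chrY_random differed by 0.239 points, below the 0.515 to 0.787 of like positions on the autosomes, and chr9_random by 0.203, below 0.485 to 0.656. chr8_random also lay above all 19 autosomes, chr4_random above 18, and chrUn_random below all 19. The part of the small number of contig positions in this was not tested. The exact permutation test of 2 libraries against 1 cannot give a p below 0.333. The UUO sham is a single library. It and the ischemia sham differed at random positions with an average chi-square of 1.44 per position, beside 1.23 for the UUO pair.

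No random window was called in this comparison, beside 0.0181% of all windows. At an unadjusted p below 0.05 there were 7 of 149 random windows by the quasi-binomial model, beside 8.13% of all windows, and 13 by limma, beside 7.92% of all windows. limma called no window at all in this comparison. Both UUO libraries were above the sham in 54 random windows (36.2%), beside 42.5% of all windows, and below it in 50 (33.6%), beside 28% of all windows. Differences of any size were lower in UUO in 73 random windows, beside 42.5% of all windows. The smallest p belonged to chrUn_random from 3640001 to 3641000, with 74.0% and 76.6% in UUO and 84.5% in the UUO sham (difference -9.23 points, SE 2.67, adjusted p = 0.434 by the quasi-binomial model). chrY_random from 8333001 to 8334000 was at 92.4% and 93.7% in UUO and 96.6% in the UUO sham, differing by -3.61 points. chr1_random from 411001 to 412000 was at 61.2% and 52.2% in UUO and 44.5% in the UUO sham (12.2 points, adjusted p = 0.484 by the quasi-binomial model). Its value moved with the library, from 16.7 points without UUO library 2 (adjusted p = 0.0307) to 7.71 without UUO library 1. With 5AZA this window was at 42.9% and 48.8%, below both UUO libraries.

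After ischemia the contigs together stood at 62.7% at 1 week and 63.3% at 1 month, against 63.6% in the ischemia sham, differences of -0.815 and -0.306 points. Autosomal positions of like level differed by -0.611 and -0.0819 points. At each time 6 of the 8 contigs were lower than in the sham. Both comparisons use the same sham library, and with 1 library a group there is no replicate check. chrY_random differed by -1.04 points at 1 week and -0.424 at 1 month, beside -0.82 and -0.164 at like level. chr8_random differed by -2.48 and -1.28 points beside -0.865 and -0.22, and its depth relative to the autosomes was lower at both times than in the sham. The part of that depth in the level was not tested.

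No random window was called at either time, beside 0% of all windows at both. At an unadjusted p below 0.05 there were 7 of 149 at 1 week and 10 at 1 month by the quasi-binomial model, beside 4.05% and 4.6% of all windows, and 14 and 16 by limma, beside 5.58% and 5.97% of all windows. limma called no window at all in these comparisons. Differences of any size were lower than in the sham in 85 random windows at 1 week, beside 58.2% of all windows, and in 79 at 1 month, beside 52.6%. At 1 week the smallest p belonged to chrUn_random from 4933001 to 4934000, with 86.2% after ischemia and 98.3% in the ischemia sham (difference -12.1 points). chrY_random from 49340001 to 49341000 stood at 89.5% after ischemia and at 100% in the sham. The chrUn_random cluster from 3235001 to 3236000, with 27 positions, was at 7.40% after ischemia and 10.2% in the sham, on 3217 and 1528 reads, and without fragment edges the difference was 0.0838 points, in the other direction.

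At 1 month chrUn_random from 3640001 to 3641000 was at 65.5% after ischemia and 77.4% in the ischemia sham (difference -11.9 points, adjusted p = 0.959 by the quasi-binomial model). This window also had the smallest p in obstruction, where UUO was the lower group. The UUO sham, at 84.5%, was the high library in this window, since the other 7 lay at 65.5% to 78.1%. chr1_random from 539001 to 540000 stood out in the other direction, at 95.4% after ischemia and 79.1% in the sham, a difference of 16.3 points over 3 positions. The sham was the low library there, since the other 7 lay at 85.3% to 95.4%. chrY_random from 39643001 to 39644000 was at 93.8% after ischemia and 99.1% in the sham, a difference of -5.29 points.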

How the data were processed

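RRBS tables of 8 libraries were used. They hold a count of covering reads and a count of methylated reads per CpG position, deposited by the authors without normalization. They also hold the methylation fraction, which the authors rounded and which lay within 0.00051 of the ratio of both counts in every row. The submitters' processing notes name Bowtie and mm9; their versions, the methylation caller and any filter were not given in the sources used here. Titles gave each library's group. The members and lists were chosen with earlier results of these data known.

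The positions of all tables were merged (Python 3.11.15; numpy 2.4.6; pandas 2.3.3; scipy 1.17.1). Positions needed 10 reads in every library, and windows of 1000 bp 3 such positions. Mean levels weight positions equally. Level and depth of sequences with at least 20 positions were compared with placed autosomes by exact sign flips over libraries, adjusted over all 27 sequences rather than over the contigs alone, a change from the planned adjustment. Windows were fitted with a quasi-binomial model over 8 libraries, 1 mean per group, and its dispersion, kept at 1 or more, was moderated by limma's squeezeVar (limma 3.58.1, R 4.3.3). The two-sided F test was adjusted by Benjamini-Hochberg over 93879 windows, and libraries without a replicate were assumed to vary like the UUO and 5AZA pairs. The script was tested on simulated data.

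Windows named are called ones or else the 3 with the smallest p in a comparison, the 3 deepest, and the one with the most positions on a contig, the last added after seeing the data. A read counts once for every CpG on it, and PCR copies cannot be recognised, so exact binomial intervals at 95% cover counting error only. Alternatives were 20 reads, no read minimum, an upper depth limit, pooled reads, windows of 300 bp, limma on log2 of methylated over unmethylated reads (pseudocount 1), fragment edges, contigs or libraries left out, a replicate block, other level classes, classes by level and depth, and positions with a dot in the strand column of every table. The last, the level and depth classes and the missing read minimum were added after seeing the data. No sequence of these contigs was used here.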

Additional observations from a re-analysis of the deposited data

Results flagged for a closer look

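With positions weighted equally, the contigs differed from their own shams in opposite directions in obstruction and in ischemia. These differences between the injury models were not tested. Autosomal positions of like level did the same, at 0.645 points in UUO and -0.611 and -0.0819 after ischemia. With reads pooled over positions the directions were not opposite. The contigs then differed by -1.415 points in UUO, -1.13 at 1 week and -2.03 at 1 month. Like positions differed by -1.372, -1.01 and -1.78 points. With fragment edges left out, the contigs at 1 month were 0.168 points above their sham. The values below weight positions equally. Both UUO libraries lay above the UUO sham and both ischemia libraries below the ischemia sham, for the contigs together and for 5 single contigs. For the contigs together, the UUO libraries were 0.572 and 0.45 points above their sham, and ischemia at 1 week and 1 month was -0.816 and -0.306 points from its own, a gap of 1.07 points between the mean UUO and the mean ischemia difference, beside 0.991 at like level. The gap was 3.12 points on chr8_random, 1.98 on chr1_random, 1.27 on chrUn_random, 0.97 on chrY_random and 0.386 on chr9_random, beside 1.09, 1.00, 1.06, 1.11 and 0.768 at like level in the same order of contigs. Each sham is 1 library of its own surgical series, so the injury and the series cannot be told apart.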

How the results depend on the processing

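Of the values of the main results recomputed under other settings, 74 kept their direction and side of the threshold or their size, 19 moved and 1 reversed; the cause was not tested. The difference of the contigs beyond autosomal positions of like level, 0.159 points lower with 5AZA, was 0.00419 at 20 reads, 0.264 with fragment edges left out and 0.145 without chrY_random and chrX_random. For UUO, otherwise -0.134, it was 0.0378 without edges and -0.00446 without chrY_random and chrX_random. For ischemia at 1 week, otherwise -0.204, it was -0.0461 at 20 reads, -0.0946 without edges and -0.0824 without chrUn_random, and at 1 month, otherwise -0.224, it was -0.0711 at 20 reads and 0.0101 without edges. Leaving out 1 library gave -0.245 to -0.0723 with 5AZA and -0.22 to -0.0474 for UUO. Pooling reads over positions changed the differences of the contigs themselves more. With 5AZA the contigs then differed by -0.508 points, otherwise -2.56, and for UUO by -1.415, otherwise 0.511. After ischemia it was -1.13 at 1 week, otherwise -0.815, and -2.03 at 1 month, otherwise -0.306.

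The depth of all contigs turned to a log2 ratio of 0.0383 without chrY_random and chrX_random. The level of chr4_random differed from the autosomes by -1.07 points at 20 reads, against 0.363 at 10. Single contigs reversed in depth, chr1_random to -0.0387 without a read minimum and chr4_random to -0.0554 without edges. The chrUn_random window from 3235001 reversed to 0.0838 points without edges. Of random windows with 5AZA, 0 were called at 300 bp, by limma or without edges, beside 0.0102%, 0% and 0.968% of all windows. With 1 library left out 2 to 4 of 149 were called, namely 2 without UUO library 1 (beside 1.6% of all windows), 3 without UUO library 2 (2.95%), 4 without 5AZA library 1 (3.97%) and 3 without 5AZA library 2 (1.49%). For UUO, 0 to 2 were called so, the 2 without UUO library 2, beside 1.39% of all windows. The depth of chrUn_random lost its call at positions with a dot in every strand column (-0.0487, exact permutation p = 0.25).

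Deviations of same-numbered UUO and 5AZA libraries from their groups correlated at 0.0702 over windows. With 2 pairs of libraries this cannot show whether same-numbered libraries share more than a number. With a replicate block, 4 random windows were called, beside 3.82% of all windows (3586 instead of 361).

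Reads summed over a window were fewest on chrX_random and chrY_random, with a median of 147 and 152.5 reads per library. Their windows held a median of 3 and 4 positions.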

Other observations

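Random contigs without a kept position were covered by few reads. chr5_random was covered in the library of ischemia at 1 week alone, with 5 reads at 5 positions, all methylated. chr7_random had 5 to 66 reads per library and was methylated at 86.4% to 100% of them. chr17_random had 13 to 45 reads in 7 libraries and none in UUO library 2, with 61.5% to 100% methylated. With 5AZA its reads were methylated at 61.5% (95% interval 31.6% to 86.1%, 13 reads) and 100% (92.1% to 100%, 45 reads), exact binomial intervals that cover counting error only.

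The strand column of the tables held a dot, whose meaning is not given in the sources used here, at 79.6% of kept random positions in every table, at 67.1% on chrY_random and at 97.3% on chr9_random. On placed autosomes it was 89.99%.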
